A study of Mus musculus with 2 samples.

Results

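The cells described here were neutrophils rich in the transcript Retnlg in gastrocnemius muscle and lung of mice, picked out of 2 single-cell RNA libraries of CD45+ cells. A cell barcode was a member if it had at least 200 genes and at most 10% mitochondrial UMIs (counted RNA molecules), lay in a neutrophil gate, held no Siglecf UMI and held at least 3 Retnlg UMIs. The gate asked for at least 0.5% of UMIs from S100a8 and S100a9, at least 1 UMI of Csf3r, Cxcr2, Il1r2 or Mmp9 combined, and at most 1 UMI of C1qa, C1qb, C1qc, Cd79a and Cd3e combined. In all, 289 of 14028 barcodes were members, 32 in muscle and 257 in lung. Members were thus chosen by the measured counts of 13 genes: Retnlg, Siglecf and the 11 of the gate. Levels of these genes follow from the choice and are given only as a description.

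Both libraries came from animals labelled "TB mice" with the genotype entry "CAC mouse model", and the labels give neither a treatment nor the number of mice. There was 1 library of gastrocnemius muscle and 1 of lung, made from enzyme-digested tissue after red cell lysis and magnetic bead selection for CD45, with a 10x Genomics 5' kit. The series as a whole concerns muscle wasting, cathepsin L and anti-PD-L1 in tumor-bearing mice. With 1 library per tissue no difference could be tested: tissue, library, depth and handling cannot be told apart, and every interval below is a 95% interval that covers counting error only.

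Neutrophils are made in the bone marrow, where granule proteins are laid down in order: azurophil granules in promyelocytes, specific granules in myelocytes and gelatinase granules later. Mature cells enter the blood carrying S100a8 and S100a9, which encode calprotectin, and, in mice, the secreted resistin-like protein encoded by Retnlg. In tissues and tumors neutrophils can turn on chemokine, hypoxia and lysosome genes, and in mouse lung tumors some carry the lectin Siglecf.

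The muscle library held 5547 barcodes and the lung library 8481, with at least 500 UMIs each. The mitochondrial limit removed 3301 muscle barcodes (59.5%) and 273 lung barcodes (3.22%). Of 2243 kept muscle barcodes 52 lay in the gate and 32 of these were members (61.5%, exact interval 47.0 to 74.7%). Of 8194 kept lung barcodes 1756 lay in the gate and 257 were members (14.6%, exact interval 13 to 16.4%). The other 1499 lung gate barcodes, against which both groups of members were set, comprised 366 with Siglecf, 937 with neither Siglecf nor Retnlg and 196 with 1 or 2 Retnlg UMIs. The libraries shared 64 barcode sequences; 2 muscle members and 1 lung member were among these, and no barcode was a member in both.

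Muscle members summed to 132906 UMIs (median 3498.5 per barcode), lung members to 819016 (median 2517) and the other lung gate barcodes to 3723389 (median 2046). Mitochondrial UMIs had a median share of 3.82% in muscle members, 0.760% in lung members and 0.739% in the other lung gate barcodes. Levels are given as CPM, the share of the group's summed UMIs scaled to 1e6, and a group's floor of 3 counts was 22.6 CPM in muscle members, 3.66 CPM in lung members and 0.806 CPM in the other lung gate barcodes.

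The sequences that precede the start sites of Retnlg, of the marker Lcn2 and of the granule genes Camp, Ngp and Ltf are shown because Retnlg chose the members and the others are a marker of the label and the granule genes that split the members. They are the 250 bases upstream of the start in RefSeq's table for GRCm38.p6, a build that differs from the GRCm39 of the libraries, so genes were matched by symbol; all 8 genes looked up were found. The windows are chr16:48872358-48872607 (plus strand) for Retnlg, chr2:32387740-32387989 (minus strand) for Lcn2, chr9:109849457-109849706 (minus strand) for Camp, chr9:110419558-110419807 (plus strand) for Ngp and chr9:111019042-111019291 (plus strand) for Ltf. Capitals mark matches to TTGCNNAA, searched on both strands, a motif of the C/EBP factors that act in granulocyte development.
Retnlg: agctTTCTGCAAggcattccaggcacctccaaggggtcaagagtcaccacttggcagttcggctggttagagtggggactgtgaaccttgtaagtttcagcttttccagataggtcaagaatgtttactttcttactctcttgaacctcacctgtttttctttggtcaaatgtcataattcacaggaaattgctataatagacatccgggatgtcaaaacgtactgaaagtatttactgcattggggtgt
Lcn2: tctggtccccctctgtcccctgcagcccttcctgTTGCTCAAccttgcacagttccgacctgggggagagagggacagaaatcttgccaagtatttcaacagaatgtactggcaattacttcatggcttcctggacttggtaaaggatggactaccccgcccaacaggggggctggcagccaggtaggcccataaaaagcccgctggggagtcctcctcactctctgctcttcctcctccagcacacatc
Camp: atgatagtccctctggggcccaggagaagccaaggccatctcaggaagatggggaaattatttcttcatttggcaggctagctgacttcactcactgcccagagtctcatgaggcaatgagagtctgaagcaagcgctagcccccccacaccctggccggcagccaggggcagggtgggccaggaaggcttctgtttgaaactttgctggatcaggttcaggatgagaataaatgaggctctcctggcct
Ngp: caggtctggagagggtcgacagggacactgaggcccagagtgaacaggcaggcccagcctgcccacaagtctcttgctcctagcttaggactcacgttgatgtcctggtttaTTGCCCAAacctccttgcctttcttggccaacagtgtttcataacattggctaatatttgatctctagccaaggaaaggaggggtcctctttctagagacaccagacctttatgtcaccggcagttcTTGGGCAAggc
Ltf: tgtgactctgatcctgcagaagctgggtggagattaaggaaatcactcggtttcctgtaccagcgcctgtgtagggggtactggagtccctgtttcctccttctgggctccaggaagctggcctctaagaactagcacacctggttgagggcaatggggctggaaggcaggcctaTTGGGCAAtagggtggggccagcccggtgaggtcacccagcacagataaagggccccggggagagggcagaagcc
Of the 8 genes, which are these 5 with Asprv1, Ifitm1 and S100a9, 5 held the motif, against 9.56% of 32851 promoter windows: Retnlg, Lcn2, S100a9, Ngp (2 matches) and Ltf. No match was found in Camp, Asprv1 or Ifitm1. Of the other motifs searched on both strands, TGACTCA (AP-1) matched none of the 8 and 4.46% of all windows, GGAAGTG (ETS) matched S100a9 and 8.55% of all, and TATAAA none and 12.4%. A match is a stretch of letters and says nothing of binding.

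Retnlg set the membership. A muscle member held a median of 9.5 Retnlg UMIs (3 to 791) and a lung member a median of 8 (3 to 339). In lung, 46 barcodes sat just inside the threshold with exactly 3 UMIs and 66 just outside it with exactly 2, so there was no gap in the counts at that point. Barcodes with over 10 Retnlg UMIs numbered 14 of 32 in muscle and 114 of 257 in lung. A further 26 lung gate barcodes with at least 3 Retnlg UMIs carried Siglecf and were left out by the rule.

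**Figure D1:**
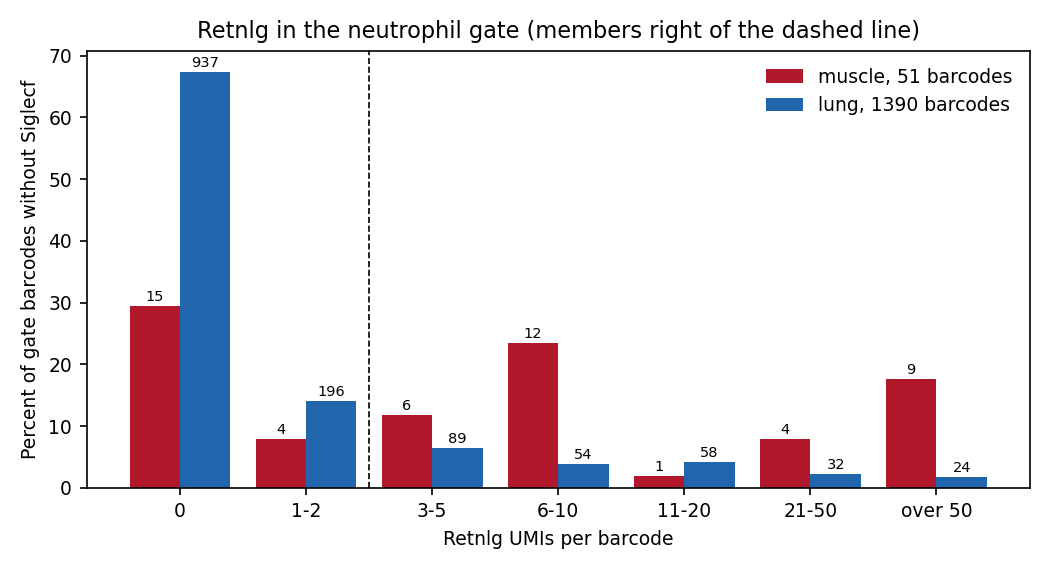
Share of gate barcodes without Siglecf (y axis, percent) by Retnlg UMIs per barcode (x axis) in muscle (red, 51 barcodes) and lung (blue, 1390 barcodes); numbers above the bars count barcodes and members lie right of the dashed line. The bar at 0 UMIs holds 15 muscle and 937 lung barcodes, and the bar at over 50 UMIs 9 muscle and 24 lung barcodes.

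The label names Retnlg, Lcn2, Asprv1, Ifitm1 and S100a9 as markers. S100a9 stood at 75745 CPM in muscle members, 48099 in lung members and 17704 in the other lung gate barcodes, and Retnlg at 15673, 7058 and 164 CPM in that order of groups. Lcn2, which encodes the siderophore-binding lipocalin, stood at 6606 CPM in muscle members, 3162 in lung members and 476 in the other lung gate barcodes. Ifitm1, an interferon-induced transmembrane protein gene, stood at 7163, 4637 and 1927 CPM in those groups. Asprv1, the gene of a retroviral-like aspartic protease, stood at 617, 463 and 196 CPM. All 5 markers were therefore highest in muscle members and lowest in the other lung gate barcodes, but Asprv1 stood at 1558 CPM in the 20 other muscle gate barcodes, above the muscle members. Among barcodes with over 10 Retnlg UMIs, the log2 ratio of muscle over lung members was -0.10 for Ifitm1 and -0.12 for Asprv1. The lowest such ratio under any alternative was 0.01 for Lcn2 and -0.06 for S100a9. The 5 richest of the 32 muscle members held 76.3% of their Retnlg, 80.2% of their Lcn2 and 54.4% of their S100a9 counts. The order of the 2 groups of members thus depended on few barcodes and on the settings. Not every member held each marker: 75% of muscle members, 65.4% of lung members and 32.0% of the other lung gate barcodes held an Lcn2 UMI, and for Asprv1 the shares were 43.8%, 44.0% and 18.7%. Lung B cell barcodes, which should lack both genes, had 6.33% with Lcn2 and 1.90% with Asprv1 at a median depth of 2530.5 UMIs.

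Set against the other lung gate barcodes, lung members were higher in granule, stefin and circulating-neutrophil genes, the granule and stefin counts lying in few barcodes. Among 3640 genes with an expected count of at least 30, 101 (2.77%) were at least 2-fold higher in lung members and 294 (8.08%) at least 2-fold lower, and the median log2 ratio over all of them was -0.29. With TMM scaling in place of total UMIs the split was 160 higher and 138 lower and that median was -0.03, so the balance of higher and lower genes depends on the scaling, and each list below is to be read against the median of -0.29.

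Among the genes named, the largest ratios were those of granule and stefin genes. Camp, the precursor of the antimicrobial peptide cathelicidin, stood at 2825 CPM in lung members and 36.5 CPM in the other lung gate barcodes (log2 ratio 6.27, interval 6.02 to 6.53). Ngp, a granule protein gene of the cystatin superfamily, stood at 2359 and 53.4 CPM (5.46, 5.25 to 5.68). Ltf, lactoferrin, stood at 905 and 82.5 CPM (3.46, 3.26 to 3.65). Ly6g, which encodes the surface protein used to recognise mouse neutrophils, stood at 115 and 5.37 CPM (4.42, 3.71 to 5.19), and was read in 42 of 257 lung members (16.3%) and 14 of 1499 other lung gate barcodes (0.934%). Ifitm6 was at 479 and 30.9 CPM, and Padi4, the enzyme that citrullinates histones, at 72.0 and 8.06 CPM. Scrg1 (3.57) and Ly6a2 (3.75) complete the genes named on the higher side with the stefins Stfa3 (6.31), Cstdc5 (5.79), Stfa1 (5.32) and Stfa2 (4.21), inhibitors of cysteine proteases whose close copies may split reads, so their single values are uncertain. The stefin counts lay in few barcodes as well: Stfa3 was read in 8 of 257 lung members, Cstdc5 in 22, Stfa1 in 23 and Stfa2 in 26, and the 5 richest held 95.7%, 87.1%, 72.3% and 68.7% of the counts. The lowest log2 ratio under any alternative was 2.61 for Stfa3, 2.66 for Cstdc5, 2.53 for Stfa1 and 2.73 for Stfa2. Without the granule-rich members Ly6a2 fell short of the mark, at 0.39.

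The genes named on the lower side had ratios nearer to 1. Adgre1, which encodes the F4/80 antigen of macrophages and of some other myeloid cells, stood at 53.7 CPM in lung members and 216 CPM in the other lung gate barcodes (log2 ratio -2.01, interval -2.48 to -1.57). Cysltr1, a receptor for cysteinyl leukotrienes, stood at 12.2 and 53.2 CPM (-2.12), and Dnase2a, the lysosomal DNase, at 7.33 and 38.7 CPM (-2.40). The actin regulator gene Abi3 (-2.52), the trypsin gene Prss2 (-2.23), Gpr171 (-2.13), the glutamine transporter gene Slc1a5 (-2.12), Tmem273 (-2.03), the growth factor gene Mydgf (-2.03) and Pam16 (-1.96), of mitochondrial protein import, were the others. None of these 10 had more than 44 counts in lung members.

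**Figure D2:**
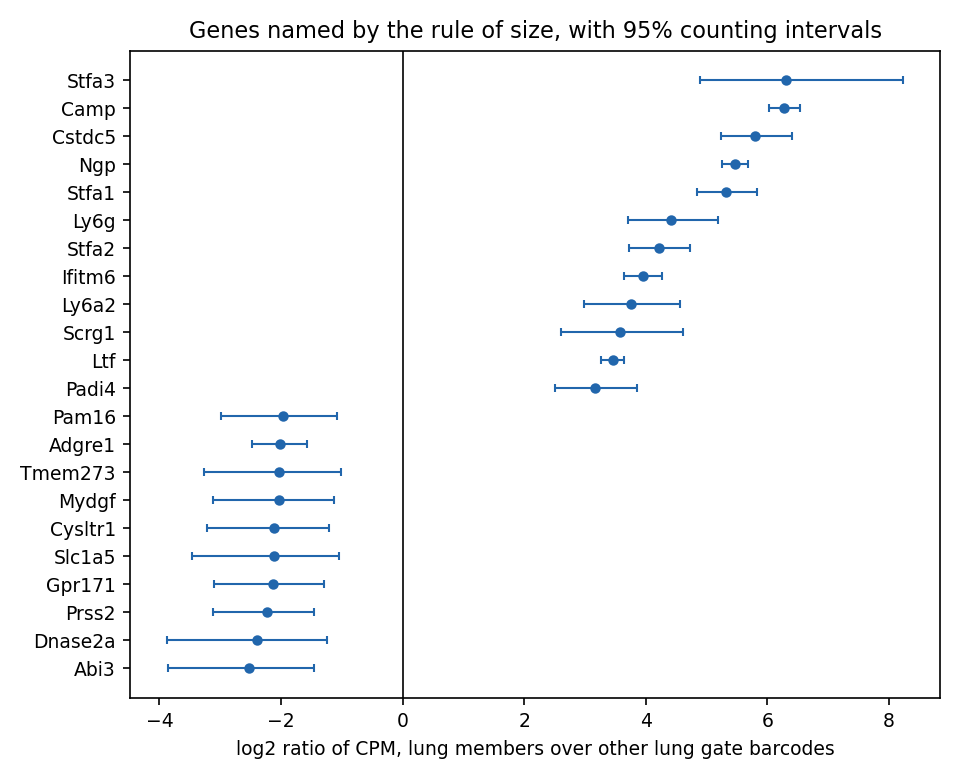
Log2 ratio of CPM, lung members over the other lung gate barcodes (x axis), for the named genes (y axis). These are the 12 of highest and the 10 of lowest ratio once rule, predicted, ribosomal and mitochondrial genes are left out. Bars are 95% counting intervals. Camp lies at 6.27 and Ngp at 5.46, while the lowest named gene, Abi3, lies at -2.52.

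Of 21 genes listed for the mature circulating neutrophil, 12 were at least 2-fold higher in lung members and 0 lower, with a median log2 ratio of 1.24. Of the 12, Retnlg, S100a8 and S100a9 are genes of the rule, and the median also covers Cxcr2, Csf3r, Il1r2 and Mmp9 of the rule. Without rule genes the list summed to 17055 CPM in lung members and 8445 CPM in the other lung gate barcodes. Pglyrp1, which encodes a peptidoglycan recognition protein of granules, stood at 1271 and 230 CPM (log2 ratio 2.46, interval 2.33 to 2.60). Anxa1, the gene of the anti-inflammatory annexin A1, stood at 538 and 128 CPM (2.07, 1.88 to 2.26). The list of specific and gelatinase granule genes had 8 of 16 higher and 0 lower (median 0.91), among them the collagenase gene Mmp8 at 220 and 26.1 CPM and the oxidase subunit gene Cybb at 158 and 71.4 CPM. This list rested in part on the 16 lung members rich in Camp, Ngp and Ltf described below: without them its median was 0.07, and Cybb stood at 30.9 CPM, below the other lung gate barcodes. Of the azurophil granule genes, the protease and peroxidase genes were close to absent: Mpo and Ctsg had no count in any member, and Elane had 1 count and Prtn3 had 12 counts in lung members and none in muscle members. The list's sum of 10665 CPM in lung members and 10005 CPM in the other lung gate barcodes came from Srgn, the serglycin gene, at 10350 and 9441 CPM, and Cd63, at 298 and 539 CPM, neither of which is confined to these granules.

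The lists of tissue-retained neutrophils and of lysosomes had medians below that of all genes in lung members, with few members past the mark; of all genes, 8.08% were at least 2-fold lower. Of 24 tissue-retention genes 0 were at least 2-fold higher and 4 lower (median -0.66); the 4 were Icam1, Ltc4s, Csf1 and Siglecf, the last by the rule. Csf1, the macrophage growth factor gene, stood at 117 CPM in lung members and 360 CPM in the other lung gate barcodes (log2 ratio -1.62, interval -1.93 to -1.32). Of 26 lysosome genes 0 were higher and 3 lower (median -0.71), among them Atp6v0d2 at -1.49 and Lgmn at -1.27. Ctsl, the cathepsin L gene named in the study's title, stood at 266 CPM in lung members and 317 CPM in the other lung gate barcodes (-0.25, -0.47 to -0.04). The protease inhibitor gene Cstb, at 531 and 995 CPM (-0.91), and the gene of the checkpoint ligand PD-L1, Cd274, at 559 and 845 CPM (-0.60), missed the 2-fold mark. Clec4n, which encodes the C-type lectin Dectin-2, passed it at 286 and 903 CPM (-1.66, -1.86 to -1.47).

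Cytokine genes split. Of 16 assessed, 3 were at least 2-fold higher in lung members (Osm, Ccl6 and Cxcl10) and 2 lower (Tnf and Csf1), with a median of -0.46. Osm, the oncostatin M gene, stood at 1907 CPM in lung members and 890 CPM in the other lung gate barcodes (log2 ratio 1.10, interval 1.01 to 1.19), and the chemokine gene Ccl6 at 5796 and 2767 CPM (1.07, 1.02 to 1.12). Of the 78 Cxcl10 counts in lung members 55 lay in 1 barcode. Tnf stood at 126 and 345 CPM (-1.46), whereas the neutrophil attractant Cxcl2, at 20105 and 19438 CPM (0.05, 0.02 to 0.07), and Il1b, at 11583 and 12616 CPM (-0.12, -0.16 to -0.09, and 0.11 with TMM), had ratios near 1. Of 15 interferon-response genes 3 were higher (Ifitm1, Ifitm3 and Ifitm6) and 1 lower (Bst2), with a median of 0.51, while Isg15, a classical interferon target, stood at 154 and 159 CPM (-0.05).

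The remaining lists held few genes past the mark in lung members. Slc2a3, a glucose transporter gene, was the 1 higher of 24 glycolysis and hypoxia genes, at 206 and 47.5 CPM (2.12). In the list of iron, lipid and polyamine handling 1 of 14 was higher, the iron exporter gene Slc40a1, and 2 were lower, Odc1 and Acsl1. Among 14 survival genes 0 were higher and 2 lower (Bax and Bcl2a1d), and of 29 transcription factor genes and 19 receptor genes for cytokines and chemokines 0 passed in either direction. The C/EBP-beta gene Cebpb stood at 5485 and 5768 CPM. The 12 genes of antigen presentation had 0 in either direction (median -0.60).

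With each barcode thinned to 1000 UMIs, which left 245 lung members and 1312 other lung gate barcodes, Pglyrp1 was read in 55.5% of lung members and 18.1% of the others, and Wfdc17, the gene of a WAP-domain protein, in 86.1% and 49.5%. Lcn2 was read in 53.5% and 22.6%, Osm in 66.5% and 35.7%, Ccl6 in 93.9% and 64.3%, Wfdc21 in 61.2% and 30.3%, Adam8 in 54.3% and 27.7%, Ifitm1 in 75.1% and 49.8% and S100a6 in 87.3% and 63.9%. Thinned lung B cell barcodes, the measure of free RNA, read Pglyrp1 in 8.14%, Wfdc17 in 15.6% and Lcn2 in 2.28%. Slpi was read in 64.5% of lung members and 30.2% of the others, but stood at 11235 CPM in B cell barcodes against 1556 CPM in lung members, so B cells give no background for it. On the lower side Clec4n was read in 18.8% of lung members and 48.1% of the others, Cstb in 25.3% and 51.2%, Ccl3 in 35.1% and 57.4%, Il1rn in 42.9% and 63.7%, and Mrpl52, Creb5, Atp6v0c, B4galt1, Mif and Ppia followed. The B cell share was 7.17% for Clec4n and 9.45% for Ccl3, below both lung groups.

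The levels moved in steps along Retnlg, outside the members as well as within them. In lung gate barcodes without Siglecf, Ifitm1 stood at 1879 CPM at 0 Retnlg UMIs, 3657 at 1 to 2, 4593 at 3 to 5, 3936 at 6 to 10 and 4943 at over 10. Wfdc17 stood at 2097, 5143, 5629, 7449 and 6653 CPM over the same bins. For both genes the largest single step lay between 0 and 1 to 2 Retnlg UMIs, below the threshold. Lcn2 stood at 375, 591, 800, 2371 and 4799 CPM and Pglyrp1 at 210, 372, 612, 1093 and 1711 CPM. Their largest step led into the bin of over 10, where both were highest. Without the barcodes of at least 10 Camp, Ngp and Ltf UMIs, Lcn2 stood at 375, 493, 442, 1023 and 1967 CPM and Pglyrp1 at 210, 375, 536, 718 and 1279 CPM. Without those barcodes Ifitm1 stood at 1879, 3708, 4780, 4466 and 5925 CPM and Wfdc17 at 2097, 5208, 5875, 8451 and 8125 CPM. Ifitm1 and Wfdc17 thus kept their largest step below the threshold but rose further above it. Ccl3, a chemokine gene for monocytes and other leukocytes, stood at 3878, 3051, 2590, 2981 and 1335 CPM, and Csf1 at 354, 276, 171, 161 and 69.4 CPM. Median depth was 1827, 1982.5, 2140, 2211 and 2857 UMIs in the 5 bins, so depth moved with Retnlg. With each barcode thinned to 1000 UMIs, Ifitm1 was read in 49.3%, 72.1%, 79.5%, 80.8% and 73.6% of barcodes, Lcn2 in 21.5%, 29.1%, 34.9%, 40.4% and 69.1%, and Ccl3 in 58.4%, 54.7%, 37.3%, 32.7% and 30%.

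**Figure D3:**
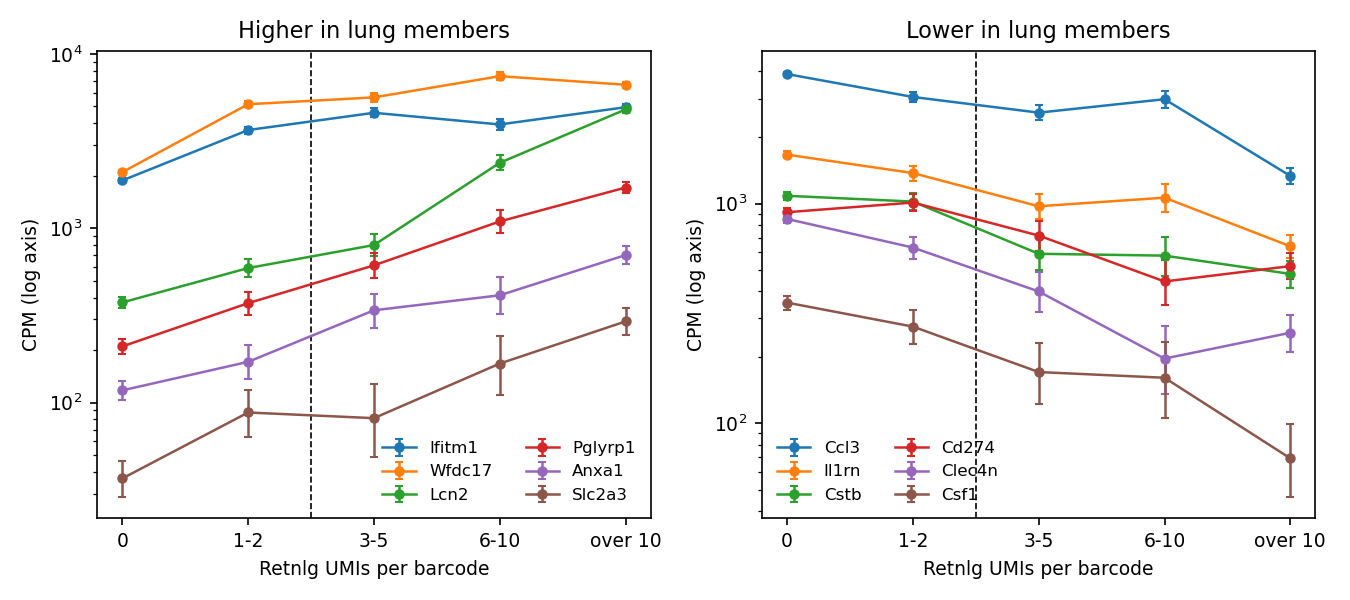
CPM (log axis) of 6 genes higher (left) and 6 genes lower (right) in lung members, by Retnlg UMIs per barcode in lung gate barcodes without Siglecf (x axis); bars are 95% counting intervals and members lie right of the dashed line. Ifitm1 and Wfdc17 step up before the threshold, Lcn2 and Pglyrp1 reach 4799 and 1711 CPM in the bin of over 10, and Csf1 drops to 69.4 CPM there.

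Just inside and just outside the threshold the lung barcodes were alike in several genes. With exactly 3 and exactly 2 Retnlg UMIs, Wfdc17 stood at 7322 and 6836 CPM, Ifitm1 at 5717 and 4607 CPM, Lcn2 at 650 and 458 CPM, and Clec4n at 346 and 530 CPM. The 366 lung gate barcodes with Siglecf, which the rule kept out, held 291 CPM of Retnlg, 1368 CPM of Wfdc17, 1318 CPM of Ifitm1, 602 CPM of Lcn2 and 1103 CPM of Clec4n. Wfdc17 and Ifitm1 were thus lower in the Siglecf-positive barcodes than in any Retnlg bin of those without Siglecf.

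The granule transcripts came from a few barcodes. Camp was read in 3 of 32 muscle members and 16 of 257 lung members, and 1 barcode held 62.9% of the muscle and 48.7% of the lung Camp counts. Counting Camp, Ngp and Ltf together, 4 of 32 muscle members (12.5%, exact interval 3.51 to 29.0%) and 16 of 257 lung members (6.23%, 3.60 to 9.91%) held at least 10 UMIs, against 3 of 1499 other lung gate barcodes (0.200%, 0.0413 to 0.584%) and 1 of 20 other muscle gate barcodes (5.0%, 0.127 to 24.9%). That 1 barcode, which held no Retnlg UMI, held all 528 Camp and all 702 Ngp counts of its group. Camp stood at 5207 CPM in muscle members and 7987 CPM in the 20 others. By Retnlg, 2 of the 16 lay in the bin of 3 to 5 UMIs, 1 in that of 6 to 10 and 13 in that of over 10, the bin where Lcn2 and Pglyrp1 were highest. These few held 99.2% of such UMIs in muscle members and 98.8% in lung members. The high CPM of these 3 genes thus came from a small fraction of the members.

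**Figure D4:**
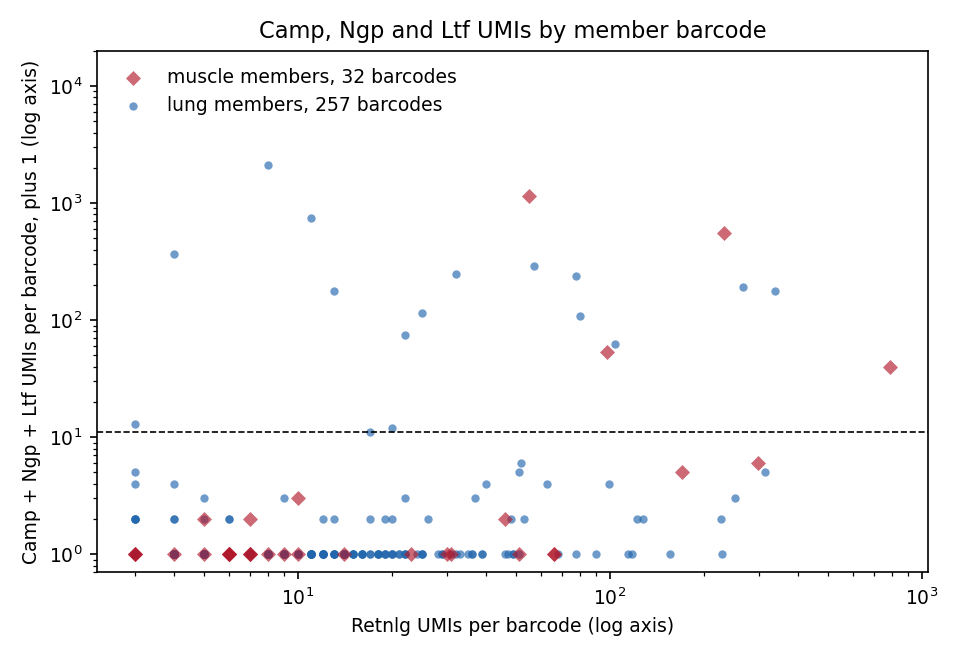
Camp, Ngp and Ltf UMIs of each member barcode plus 1 (y axis, log) against its Retnlg UMIs (x axis, log) for 32 muscle members (red diamonds) and 257 lung members (blue circles). The 4 muscle and 16 lung members on or above the dashed line hold at least 10 such UMIs, and most other members lie at 0, drawn at 1.

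The granule-rich and granule-poor members, split after the values were seen and at an arbitrary mark, also differed in genes outside the split. In the 16 granule-rich lung members Lcn2 stood at 15536 CPM, S100a8 at 117035 CPM and Hmgb2, a chromatin protein gene of immature and dividing cells, at 2603 CPM; in the 241 granule-poor ones they stood at 1292, 27619 and 387 CPM. Cybb showed a like split with 995 and 30.9 CPM. The reverse held for Ifitm1, at 502 CPM in granule-rich and 5262 CPM in granule-poor lung members, for Wfdc17, at 167 and 7485 CPM, for Il1b, at 2529 and 12952 CPM, and for the G-CSF receptor gene Csf3r, at 195 and 1535 CPM. Median depth was 6159.5 UMIs in granule-rich and 2378 UMIs in granule-poor lung members. In muscle the 4 granule-rich members had 18809 CPM of Lcn2 and 903 CPM of Ifitm1, and the 28 granule-poor ones 2538 and 9250 CPM. Granule-poor lung members stood above the 476 CPM of Lcn2 and the 1927 CPM of Ifitm1 in the other lung gate barcodes, and below their 71.4 CPM of Cybb.

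Transcripts of dividing cells were rare. A Mki67 or Top2a UMI was read in 5 of 257 lung members (1.95%, exact interval 0.635 to 4.48%) and in 45 of 1499 other lung gate barcodes (3.0%, 2.2 to 4.0%). It was read in 0 of 32 muscle members, which allows a share of up to 10.9%. The 33 Mki67 counts of lung members lay in 4 barcodes and 19 of them in 1. In the cell cycle list 3 of 5 assessed genes were at least 2-fold higher in lung members (Mki67, Hmgb2 and Ube2c) and 1 lower (Pcna); the median of 1.56 was -0.78 once the granule-rich members were left out.

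Muscle members were set against the same other lung gate barcodes with a 4-fold mark, since their sum was small; both contrasts share those barcodes. Among 2297 genes with an expected count of at least 10, 93 (4.05%) were at least 4-fold higher in muscle members and 243 (10.6%) at least 4-fold lower, with a median log2 ratio of -0.29. The mature circulating list had 8 of 21 higher and 0 lower (median 1.66), with Retnlg, S100a8 and S100a9 of the rule among the 8. That median covers the list's other rule genes as well. Without rule genes the list summed to 24371 CPM in muscle members and 8445 CPM in the other lung gate barcodes. The specific and gelatinase granule list, which holds Mmp9 of the rule, had 6 of 16 higher and 1 lower (median 1.29). Mmp8 stood at 888 CPM in muscle members and 26.1 CPM in the other lung gate barcodes (log2 ratio 5.09, interval 4.69 to 5.49), and was read in 18 of 32 muscle members. Ly6g stood at 271 and 5.37 CPM (5.66), Ifitm6 at 1121 and 30.9 CPM (5.18), Ly6a2 at 248 and 5.37 CPM (5.53) and Stfa3 at 135 and 1.07 CPM (6.98). The 33 Ly6a2 counts lay in 5 muscle barcodes, 19 of them in 1, and the 18 Stfa3 counts in 3, 14 of them in 1. Within 1500 to 5000 UMIs the log2 ratio of Ly6a2 was 0.00. That is the value set where muscle members hold no count and the other group lies below the floor, so it does not show equal levels. The 20 other muscle gate barcodes stood at 1059 CPM of Ifitm6, 166 CPM of Ly6g and 363 CPM of Ly6a2. Their Ly6g lay in 1 barcode. High levels of these 3 genes were thus not particular to the members within the muscle library, whereas Mmp8 stood at 60.5 CPM in the 20 others. Camp (7.16) and Ngp (6.88) were high in the sum for the 3 and 10 muscle barcodes that held them. The 28 granule-poor muscle members held no Camp UMI and 1 Ltf UMI, and among barcodes of 1500 to 5000 UMIs, which leaves out all 4 granule-rich muscle members, the log2 ratio of Ltf was -2.65. Arg1, the arginase gene, had 0 counts in muscle members and was at least 11.8-fold lower.

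The lower genes in muscle members included chemokine, antigen presentation and tissue-retention genes. Of 14 assessed cytokine and chemokine genes 0 were higher and 8 lower (median -2.32), and of 23 tissue-retention genes 0 were higher and 13 lower (median -2.13), Siglecf among the 13 by the rule. Ccl3 stood at 52.7 CPM in muscle members and 3475 CPM in the other lung gate barcodes (log2 ratio -6.04, interval -7.36 to -5.0). The class II antigen presentation genes H2-Aa, H2-Ab1 and H2-Eb1 had 1 count each in muscle members, with log2 ratios of -5.68 (-10.98 to -3.20), -5.56 (-10.86 to -3.08) and -5.12 (-10.43 to -2.64). Under an alternative that of H2-Eb1 came to -1.47, short of the mark. Single counts were also all that was read of the osteopontin gene Spp1 (-5.45, -10.76 to -2.97), of P2ry14 (-5.44, -10.74 to -2.96), of the growth factor gene Hbegf (-5.33, -10.63 to -2.85), of the cholesterol exporter gene Abca1 (-5.05, -10.36 to -2.57) and of Adgre1 (-4.84, -10.15 to -2.36), so the sizes of these ratios are poorly known. Il1a, the interleukin 1 alpha gene, had 2 counts (-5.24, -8.28 to -3.38). Of 23 lysosome genes 0 were higher and 8 lower (median -1.44), with Ctsl at 60.2 and 317 CPM (-2.40, -3.61 to -1.41).

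Muscle transcripts accompanied these barcodes. Ttn, the giant sarcomere protein gene, stood at 278 CPM in muscle members, was read in 19 of 32 of them, and had 2 counts, 0.537 CPM, in the other lung gate barcodes (log2 ratio 9.02, interval 7.06 to 12.12). Myh4, a fast myosin gene, stood at 90.3 CPM against 0 and was at least 112-fold higher. The 20 other muscle gate barcodes held 287 CPM of Ttn and 212 CPM of Myh4. Of 10 myofibre markers 9 were read in muscle members, with 27 counts and a sum of 203 CPM, and 3 in lung members, with a sum of 8.55 CPM. The remaining genes named on the higher side rested on single barcodes. All 19 counts of the keratin gene Krt81 (at least 177-fold higher), 9 of 14 counts of Krt83 (4.92, 3.72 to 6.12) and all 10 counts of the transcription factor gene Sox5 (7.13, 4.90 to 10.36) lay in 1 muscle barcode each. The part of muscle RNA and of single barcodes in these ratios was not tested.

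Between members of the 2 tissues, 29 of 2032 assessed genes (1.43%) were at least 4-fold higher in muscle members, 93 (4.58%) at least 4-fold lower, and the median log2 ratio was -0.01. Only Mmp8 of the 21 mature circulating genes passed the mark, at 888 CPM in muscle members and 220 CPM in lung members (log2 ratio 2.01, interval 1.67 to 2.36). The list's median, rule genes included, was 0.48. The Mmp8 ratio was 0.09 within 1500 to 5000 UMIs. Lcn2 (1.06, 0.95 to 1.17) and Pglyrp1 (1.04, 0.86 to 1.22) were higher in muscle members below that mark, and Wfdc17 was near equal (0.17, 0.07 to 0.27). Of the genes named on the higher side, Ttn and Myh4 had 0 counts in lung members and were at least 76.0-fold and 24.6-fold higher in muscle members. Cdk8, a kinase gene of the Mediator complex, stood at 7870 and 1193 CPM (2.72, 2.59 to 2.85), was read in 31 of 32 muscle members, and stood at 3857 CPM in the other muscle gate barcodes. Phospho1 (5.32, 3.18 to 8.51), Mast4 (3.76), Rora (3.50), Vill (3.14), the tropomyosin gene Tpm1 (2.62) and Arl2bp (2.51) rested on 10 to 13 counts in muscle members, and 18 of 19 counts of Id3 (4.06) lay in 1 barcode. Sox5, at 10 counts against 0, was at least 20.5-fold higher, and Krt81, at 19 counts against 1, had a log2 ratio of 6.87 (4.22 to 12.25).

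Inflammatory transcripts set the 2 groups of members apart. Of 15 assessed cytokine and chemokine genes 0 were at least 4-fold higher and 8 lower in muscle members (median -2.05): Il1a, Cxcl2, Cxcl3, Cxcl10, Ccl3, Ccl4, Ccl9 and Vegfa. Cxcl2 stood at 4853 CPM in muscle members and 20105 CPM in lung members (log2 ratio -2.05, interval -2.17 to -1.94), with a median of 3 UMIs per muscle member and 39 per lung member; within 1500 to 5000 UMIs the ratio was -1.46, short of the mark. Cxcl3 stood at 113 and 3759 CPM (-5.06, -5.90 to -4.33), Ccl3 at 52.7 and 2029 CPM (-5.27, -6.58 to -4.22) and Ccl4 at 120 and 1383 CPM (-3.52, -4.33 to -2.82). Il1b differed less, at 6192 and 11583 CPM (-0.90, -1.01 to -0.80), and had a median of 27 UMIs per muscle member and 28 per lung member. Osm stood at 632 and 1907 CPM (-1.59), and Ccl6 at 4319 and 5796 CPM (-0.42). Vegfa and Arg1 had no count in muscle members and 174 and 211 counts in lung members; the bounds were at least 9.41-fold and 11.4-fold lower in muscle members. Of the Arg1 counts in lung members 95 lay in 1 barcode.

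**Figure D5:**
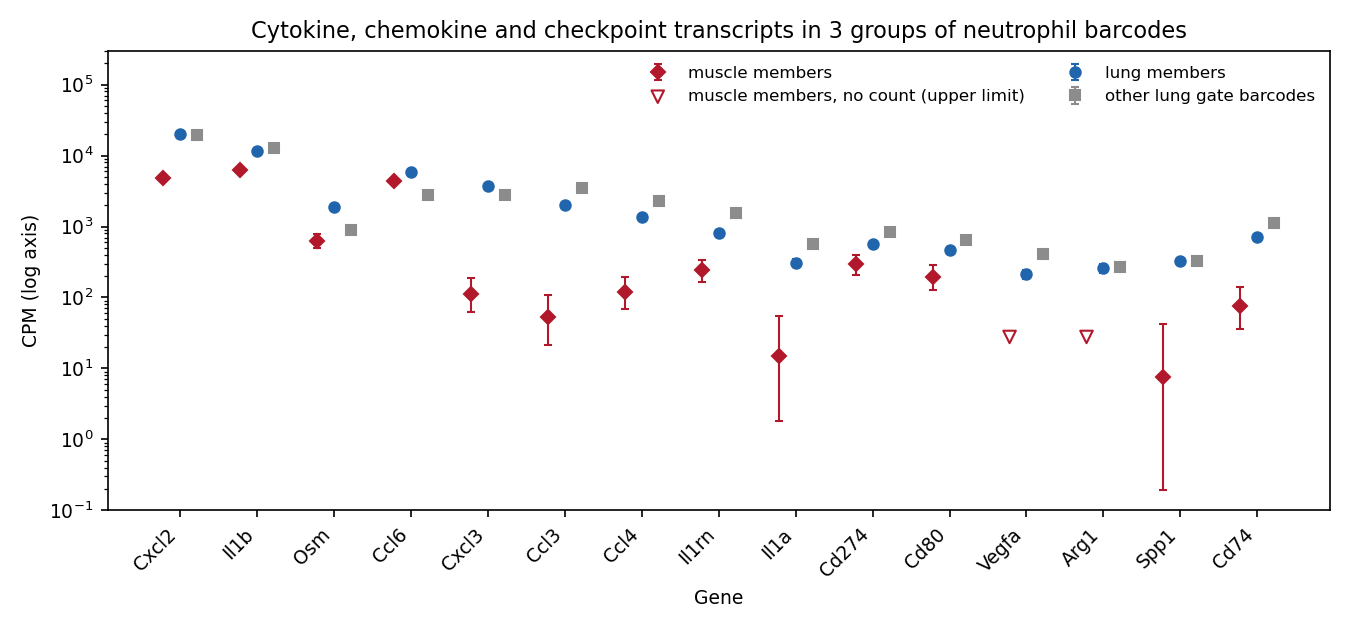
CPM (log axis) of 15 cytokine, chemokine, checkpoint and related genes (x axis) in muscle members (red diamonds), lung members (blue circles) and the other lung gate barcodes (grey squares), with 95% counting intervals; open triangles mark the upper limit where muscle members had no count. Cxcl3 lies at 113, 3759 and 2819 CPM in the 3 groups and Ccl3 at 52.7, 2029 and 3475 CPM.

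The other lists between tissues leaned the same way or stayed near their background. Of 21 tissue-retention genes 0 were higher and 7 lower in muscle members (median -1.15), and of 23 glycolysis and hypoxia genes 0 were higher and 5 lower (median -0.66), with Hilpda, Egln3, Mif, Vegfa and the hexokinase gene Hk2 the 5, Hk2 at 30.1 CPM in muscle members and 194 CPM in lung members (log2 ratio -2.69). Of 9 antigen presentation genes 4 were lower, all of class II: Cd74, H2-Aa, H2-Ab1 and H2-Eb1. Cd74 stood at 75.2 and 706 CPM, while B2m of class I had a ratio of -0.06 (-0.37 to 0.24). Cd74 stood at 10308 CPM in lung B cell barcodes, the B cell markers summed to 64.7 CPM in lung members and had 0 counts in muscle members, and the part of free B cell RNA in these ratios was not tested. The 3 class II H2 genes had ratios of -5.09 (H2-Aa, -10.40 to -2.60), -4.91 (H2-Ab1, -10.22 to -2.41) and -4.52 (H2-Eb1, -9.83 to -2.01). Fn1, the fibronectin gene (-4.69, -10 to -2.19), Spp1 (-5.43, -10.74 to -2.94), Hbegf (-5.02, -10.33 to -2.53) and Abca1 (-4.50, -9.81 to -1.99) had 1 count each in muscle members. The weakest ratio under any alternative was -0.67 for Fn1, -1.83 for Spp1, -1.79 for Abca1 and -1.62 for H2-Eb1, all short of the mark. Hbegf, H2-Aa and H2-Ab1 stayed past it. In lung members the 5 richest barcodes held 69.2% of Fn1, 65.7% of Spp1 and 62.2% of H2-Ab1 counts. Of 18 lysosome genes 0 were higher and 2 lower (median -0.80): Ctss, and Ctsl at 60.2 and 266 CPM (-2.14, -3.37 to -1.14). Heat shock and dissociation genes had 0 higher and 3 lower of 17: Hspa1a, Hspa1b and Egr1. In contrast Cxcr4, the receptor for the retention signal CXCL12, stood at 474 CPM in muscle members and 226 CPM in lung members (1.07, 0.63 to 1.49), with the other lung gate barcodes at 345 CPM. The 20 other muscle gate barcodes stood at 696 CPM of Cxcr4, above the muscle members.

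Receptor and oxidase genes differed less than the chemokine genes. Of 16 cytokine and chemokine receptor genes 0 were at least 4-fold higher and 1 lower in muscle members than in lung members (Csf2rb2, a beta chain gene of the interleukin 3 receptor; median 0.12), and of 19 pattern, complement and Fc receptor genes 0 passed in either direction (median -0.16). Fpr1, the receptor gene for formylated bacterial peptides, stood at 466 CPM in muscle members, 150 CPM in lung members and 121 CPM in the other lung gate barcodes (muscle over lung members 1.64, 1.17 to 2.09). Tlr4, the endotoxin receptor gene, stood at 128, 306 and 403 CPM in the 3 groups (-1.26, -2.06 to -0.55). Of 7 NADPH oxidase genes 0 passed (median 0.89, and -0.19 within 1500 to 5000 UMIs), with Cybb at 331 CPM in muscle members and 158 CPM in lung members. Among 25 transcription factor genes Egr1, an immediate early gene, was lower in muscle members, at 143 and 763 CPM (-2.42). Spi1, which encodes PU.1, stood at 933 and 427 CPM (1.13, 0.82 to 1.43), below the 4-fold mark. Alox5ap, needed for leukotriene synthesis, stood at 2603 and 1618 CPM, with the other lung gate barcodes at 928 CPM. In the 20 other muscle gate barcodes Spi1 was near equal to muscle members, at 938 CPM. Cybb (439 CPM), Egr1 (378 CPM) and Tlr4 (182 CPM) were higher there than in muscle members, and Fpr1 (272 CPM) and Alox5ap (1830 CPM) lower.

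In Cxcl2 and Cxcl3, muscle members at low and at high Retnlg both stood below the lung members with over 10 Retnlg UMIs. Muscle members with 3 to 10 Retnlg UMIs held 8267 CPM of Cxcl2 and 239 CPM of Cxcl3, and the 14 with over 10 held 1797 CPM of Cxcl2 and no Cxcl3; the matching lung members with over 10 Retnlg UMIs held 16812 and 2139 CPM. The 20 other muscle gate barcodes, set by the same gate but not members, stood at 5763 CPM of Cxcl2 and 393 CPM of Cxcl3. Both chemokine genes were thus lower than in lung members in member and other gate barcodes of the muscle library alike. Within muscle, Tnf stood at 105 CPM in members and 1588 CPM in the 20 others.

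Markers of other cells were summed in the members; the rule itself limits C1qa, C1qb, C1qc, Cd79a and Cd3e and sets Siglecf to 0, so the low values of those 6 follow from it. Muscle members had 0 counts of the B cell, dendritic cell, epithelial, platelet, and basophil and mast cell lists. Their 9 macrophage markers summed to 97.8 CPM, against 386 CPM in lung members and 704 CPM in the other lung gate barcodes, with Mrc1 and Ms4a7, which the rule did not use, at 0 in muscle members. Monocyte markers summed to 497, 610 and 498 CPM in the 3 groups, and T and NK cell markers to 22.6, 69.6 and 44.3 CPM. The 7 eosinophil markers had 1 count in muscle members and 9 in lung members, with Prg2, Epx and Il5ra at 0 in both. Epithelial markers summed to 237 CPM in lung members and 128 CPM in the other lung gate barcodes, where 58 of the 91 Krt8 counts in lung members lay in 1 barcode. The part of such RNA in the ratios above was not tested.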

How the data were processed

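The 2 libraries were deposited as filtered feature-barcode matrices of UMI counts per gene and cell barcode; per the submitters' processing notes they were made with Cell Ranger 7.0.1 on GRCm39. Whole-number counts were used as deposited, with no unused sample columns (0). The lowest barcode held 500 UMIs. Members, gene lists and tests were chosen with earlier results of these data known.

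Barcodes with at least 200 genes and at most 10% mitochondrial UMIs were kept and gated as described above. Raw counts were summed per group and divided by the group's total UMIs (CPM). Intervals are 95%: exact Poisson for CPM, exact binomial for shares, conditional binomial for ratios. UMIs are counted molecules, and the intervals cover counting error only. With 1 library per tissue no test was made, and a gene is called by size: 2-fold in lung with an expected count of at least 30, 4-fold where muscle is involved with at least 10, the expected count being the higher CPM times the smaller group's total UMIs. A group at 0 was set to 3 counts and the ratio given as a bound. Where the other group's CPM lay below that level, the log2 ratio was set to 0 and measures nothing. Named genes are the 12 highest and 10 lowest called ratios in each comparison, without predicted, ribosomal and mitochondrial genes and rule genes, plus list members. The counts and medians of a list include any rule genes it holds, such as Csf3r, Cxcr2 and Il1r2 among the receptors. The split of members at 10 Camp, Ngp and Ltf UMIs, and other genes singled out, were chosen after their values were seen.

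Detection shares were also computed after thinning barcodes to 1000 UMIs; 1 muscle member, 12 lung members and 187 other lung gate barcodes were too shallow. No doublets were removed in the main analysis; an alternative removed barcodes nearest to simulated doublets, at 0.8% per 1000 barcodes. Other alternatives changed the mitochondrial limit, the Retnlg threshold and the S100a8 and S100a9 share. The scaling (TMM from edgeR 4.0.16), the count minimum, the depth range (1500 to 5000 UMIs) and the averaging were also changed. The gene minimum, the receptor and other-cell limits of the gate and the Siglecf condition were not varied. Python 3.11.15, numpy 2.4.6, scipy 1.17.1, pandas 2.3.3, scikit-learn 1.9.0 and R 4.3.3 were used, and the ratio code was tested on simulated data. Bulk RNA-seq of the series was not analysed here. Results for some genes are not reported here.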

Additional observations from a re-analysis of the deposited data

Results flagged for a closer look

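Slc40a1, the iron exporter gene, went in opposite directions in the 2 tissues: members stood above the other gate barcodes in lung (log2 ratio 1.18) and below them in muscle (-1.37, 14 counts in members and 18 in the 20 others). Asprv1 did likewise, with a log2 ratio of 1.24 in lung and -1.34 in muscle (82 counts in members and 103 in the others). Camp (6.27 in lung and -0.62 in muscle), Ngp (5.46 and -0.76) and Ly6a2 (3.75 and -0.55) also had opposite signs, with less than a 2-fold difference in muscle, where 1 of the other gate barcodes held all counts of Camp and Ngp. No such difference between tissues was tested, since there was 1 library of each.

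In barcodes left out of all comparisons, Retnlg was also read. In muscle, 4 barcodes over the 10% mitochondrial limit met the rest of the rule, with a median mitochondrial share of 15.0% and a median depth of 2062 UMIs. In lung, 87 kept barcodes outside the gate held at least 3 Retnlg UMIs, with a median of 6; of these, 58 held more than 1 UMI of the other-cell genes, 31 fell short of the S100a8 and S100a9 share and 16 had none of the 4 receptor and protease UMIs.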

How the results depend on the processing

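The number of members stayed within 1.5 times its main value under every alternative run, at 23 to 36 in muscle and 185 to 323 in lung. Of 1475 gene ratios under an alternative, 16 had the opposite sign to the main value, in 11 of 106 results, and 2 of these were genes past the mark; of 770 list medians 45 had the opposite sign, in 21 of 55 results, most with main values near 0. The count of genes past the mark depended on the settings. For lung members over the other lung gate barcodes, the 101 higher genes became 160 with TMM, 228 with a count minimum of 10 and 1590 with a minimum of 1; the 294 lower ones became 138, 956 and 2067, and 445 with Retnlg at 0.1% of UMIs or more. For muscle members over the other lung gate barcodes, the 93 higher genes became 46 with a minimum of 30, 829 with 1 and 60 within 1500 to 5000 UMIs; the 243 lower ones became 73, 536 and 125, and 150 without the granule-rich members, an alternative chosen after seeing the data, as was that of members with over 10 Retnlg UMIs. For muscle members over lung members, the 29 higher genes became 11 with a minimum of 30, 518 with 1 and 50 by the mean of the barcodes' own CPM; the 93 lower ones became 36 with a minimum of 30, 232 with 1 and 54 within 1500 to 5000 UMIs. TMM moved the median over all genes to -0.07 for muscle members and -0.03 for lung members over the other lung gate barcodes, and to -0.09 between members.

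Of the medians over 0.5 from 0, those of the cell cycle, specific granule and NADPH oxidase lists changed sign. The cell cycle median in lung was -0.99 with Retnlg at 0.1% or more, -0.52 within 1500 to 5000 UMIs and -0.78 without granule-rich members. Within 1500 to 5000 UMIs, muscle members over the other lung gate barcodes had -0.24 for the specific granule list, -0.43 for NADPH oxidase (-0.25 without granule-rich members) and -2.65 (at most 1 Ltf count in muscle) for Ltf; over lung members they had -0.29 and -0.19 for these 2 lists. Between members, ratios not past the mark turned within 1500 to 5000 UMIs to -4.00 for Camp, -2.73 for Ngp and -4.14 for Ltf. The value for Camp is a bound, since muscle members held no Camp count in that range. Id3 between members was -0.12 with the S100a8 and S100a9 share at 2% or more. The range of 1500 to 5000 UMIs left out all 4 granule-rich muscle members, the shallowest of which held 6599 UMIs. The cause of the shifts was not tested. The cytokine median between members ranged from -2.23 to -1.37 and that of Cxcl2 from -3.23 to -1.46. No paired analysis was possible because there was 1 library per tissue. Depth limits muscle most: 3 counts there were 22.6 CPM.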
